A study of Mus musculus with 4 samples.

Results

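The genes described here are 5 adhesion G protein-coupled receptors of myeloid cells, Adgre1, Adgre4, Adgre5, Adgrg1 and Adgrg3, together with Cd55, whose product is a ligand of the ADGRE5 protein. They were picked by gene symbol, and the family was selected on the large difference of Adgre5 between tumor and control libraries in these same data, with Cd55 added as its ligand. All values of these 6 genes in that comparison are therefore given as a description, with no test. They are 6 of the 54532 genes in the count table, and all 6 were among the 14256 genes with enough counts to be fitted.

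The RNA came from alveolar macrophages (AMs), the resident phagocytes of the air spaces, of female wild-type (WT) mice. The mice had a BALB/c background and were aged 8 to 10 weeks. The 2 control libraries came from mice without a tumor, and the 2 tumor libraries from mice that carried a primary 4T1 tumor for 2 weeks. 4T1 is a mouse mammary carcinoma line that spreads to the lung, and the study placed it in the mammary fat pad to look at AMs of the pre-metastatic lung. No engineered allele and no drug was part of either group. For the imaging of AMs from the same tumor model the study used CD45+ CD11b- CD11c+ SiglecF+ cells, and its RNA-seq methods say that AMs were purified without giving a gate of their own. The sources used here do not say whether a library was made from 1 mouse or from pooled mice, so the p-values below measure only the spread between these libraries.

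Adhesion G protein-coupled receptors (adhesion GPCRs) carry a long extracellular region, often built of adhesion modules, on a membrane-spanning receptor core. Most are cut by their own GAIN domain, and the stretch just behind the cut can act as a tethered agonist once the outer fragment is moved or lost. The ADGRE group, with EGF-like repeats at its outer end, is carried mainly by leukocytes. ADGRE1 is the F4/80 antigen used to mark mouse macrophages, ADGRE4 is FIRE, a receptor of monocytes and macrophages, and ADGRE5 is CD97, which is found on most leukocytes. ADGRG1 (GPR56) and ADGRG3 (GPR97) are encoded next to each other. ADGRG3 is known mainly from neutrophils, and ADGRG1 from the brain and from cytotoxic lymphocytes.

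Total counts ranged from 16167147 to 19205737 per library. The 13 genes fixed as markers of AM identity, among them Siglecf, Pparg and Chil3, were counted in all 4 libraries and summed to between 17900 and 17970 CPM (counts scaled to library size by TMM) in the controls and between 11920 and 12050 CPM in the tumor libraries. All 13 passed the test as lower in the tumor libraries, with a median log2 difference of -0.48, but with library sizes set by the sum of these genes 7 of them were higher and 5 lower. Genes that mark other cells were also present in the tumor libraries. The 6 eosinophil markers summed to between 0.693 and 0.823 CPM in the controls and between 2917 and 2944 CPM in the tumor libraries. The 11 neutrophil markers went from between 113.6 and 113.8 CPM to between 4471 and 4488 CPM. The gate of the imaging takes CD11b- cells, and the sources used here do not say whether the sequenced cells passed it. RNA of neutrophils or eosinophils and RNA of AMs cannot be separated in a bulk library, nor can fewer cells of a type be told apart from less RNA per cell. The part of these cells in the results that follow was not tested.

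For all 6 genes both tumor libraries lay above both control libraries. The share of all genes tested with the same separation was not counted, so nothing is read from it. As background, edgeR's quasi-likelihood test called 53.8% of all genes tested, and 29.0% of all genes tested were called as higher. Nothing is read from the 6 genes against these shares, because Adgre5 led to the choice of the family on this same comparison. Log2 differences are tumor over control with their SE, and means are over 2 libraries with SD.

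**Figure D1:**
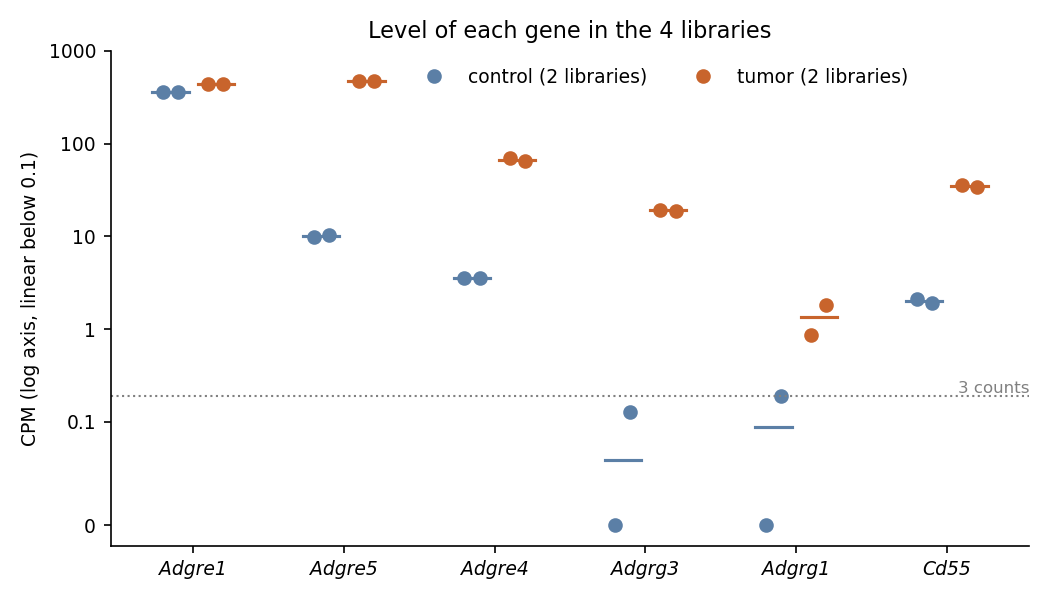
CPM of the 6 genes (log axis, linear below 0.1) in the 2 control and 2 tumor libraries, with points for libraries and lines at the group means and a dotted line at 3 counts. Adgre1 stood near 359 CPM in controls and 436 CPM in tumor libraries, while Adgre5 went from about 10.1 to 468 CPM.

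Among the ADGRE receptors, Adgre5 (ENSMUSG00000002885), which lies on chromosome 8 at 83723251 to 83741326 of GRCm38 on the minus strand, was the gene with the largest gap in reads. It was counted 184 and 163 times in the controls, and in the tumor libraries 8131 and 9189 times. In CPM this was 9.81 and 10.3 against 469 and 468. The tumor libraries were nearly equal to each other and far above both controls. The mean was 10.1 ± 0.362 CPM (SD, n = 2) in controls and 468 ± 0.864 CPM (SD, n = 2) in tumor libraries, a log2 difference of 5.54 ± 0.0483 or 46.6-fold. Of all genes tested, 3.0% had a log2 difference as large or larger.

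The reads of Adgre5 have an overlapping neighbour. Ddx39, an RNA helicase gene on the opposite strand, shares 895 of the 3757 exonic bases of Adgre5, and whether reads were counted by strand is not given in the sources used here. Ddx39 was counted 766, 649, 1070 and 1260 times in control 1, control 2, tumor 1 and tumor 2. Its counts were above those of Adgre5 in both controls and far below them in both tumor libraries. How reads in the shared bases were assigned, and its part in the values of Adgre5, was not tested. The log2 difference of Ddx39 was 0.62 ± 0.0638 (edgeR quasi-likelihood test, Benjamini-Hochberg adjusted p = 2.66e-09). A microRNA gene inside Adgre5, Mir1668, had 0 counts in every library.

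Adgre1 (ENSMUSG00000004730, chromosome 17, 57358691 to 57483527, plus strand), the F4/80 gene, was abundant in both groups. It stood at 359 and 358 CPM in the controls and at 435 and 437 CPM in the tumor libraries. The groups did not overlap, but the fold was the smallest of the 6 genes, with means of 359 ± 1.18 CPM (SD, n = 2) and 436 ± 0.829 CPM (SD, n = 2). The log2 difference was 0.28 ± 0.0263, or 1.22-fold, a size that 31.0% of all genes tested reached or passed. With library sizes set by the AM identity genes in place of TMM it was 0.86. That scaling moved the median log2 difference of all genes tested from 0.02 to 0.60, so the directions of genes with small differences depend on it.

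Adgre4 (ENSMUSG00000032915), on the plus strand of the same chromosome at 55749984 to 55853662, lies 1.51 Mb before Adgre1. It had 67 and 56 counts in the controls and 1198 and 1278 in the tumor libraries. The corresponding levels were 3.57 and 3.54 CPM against 69.1 and 65.0 CPM. The control libraries were almost identical, and both tumor libraries lay far above them. The log2 difference was 4.23 ± 0.106, or 18.8-fold, and 4.17% of all genes tested had a difference as large or larger. Beside Adgre1 and Adgre4, the nearest genes with at least 10 counts in every library of a group had far smaller differences than Adgre4. Vav1, a guanine exchange factor gene before Adgre1, had a log2 difference of -0.03 ± 0.0336, and Pot1b, a telomere protein gene before Adgre4, had one of 0.47 ± 0.121. On the far side, Rpl7a-ps5, a pseudogene 354902 bases after Adgre1, was at -0.40 ± 0.107, and Zfp119a, a zinc finger gene after Adgre4, at 0.70 ± 0.246.

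The ADGRG genes described here lie next to each other on the plus strand of chromosome 8, Adgrg1 first and Adgrg3 3.5 kb further on. Adgre5 is on the same chromosome, 11.23 Mb before Adgrg1.

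Adgrg3 (ENSMUSG00000060470, 95017692 to 95045250) was at the edge of detection in the controls, with 0 and 2 counts, and had 333 and 372 counts in the tumor libraries. The tumor libraries, at 19.2 and 18.9 CPM, were close to each other. The ratio of summed counts scaled to library size was 329, with a 95% exact counting interval from 90.8 to 2725. Such intervals, and the floor of 3 counts used below for genes without any control count, cover counting error only.

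Adgrg1 (ENSMUSG00000031785, 94974751 to 95014217) was scarce in every library. It had 0 and 3 counts in the controls and 15 and 36 in the tumor libraries. The tumor libraries, at 0.865 and 1.83 CPM, were both above the controls but differed 2.12-fold from each other. The count ratio of tumor to control was 15.9, with a 95% exact counting interval from 5.14 to 79.6. Although it stands only 3.5 kb from Adgrg3, its tumor mean of 1.35 ± 0.684 CPM (SD, n = 2) was far below the 19.1 ± 0.191 CPM (SD, n = 2) of Adgrg3.

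Cd55 (ENSMUSG00000026399, chromosome 1, 130439027 to 130462744, minus strand) encodes decay-accelerating factor, a lipid-anchored surface protein that breaks up complement convertases and binds the EGF-like repeats of CD97. It was counted 40 and 30 times in the controls and 619 and 673 times in the tumor libraries. This was 2.13 and 1.90 CPM against 35.7 and 34.2 CPM. The tumor libraries again lay close together and apart from the controls. The log2 difference was 4.11 ± 0.140, or 17.2-fold, and 4.29% of all genes tested had one as large or larger. The near-identical copy Cd55b, a separate gene of the same chromosome, had 0, 0, 1 and 1 counts. Reads that match both copies could be lost or split between them, depending on the counting. Gm15674, the nearest gene before Cd55 by the same count rule, had 1 and 0 counts in the controls and 24 and 20 in the tumor libraries.

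The start regions of 3 of these genes are shown because Adgre4 and Cd55, on different chromosomes, had a similar fold, and because Adgrg3 had the largest count ratio of the 6. Each is the RefSeq promoter window in GRCm38.p6, 250 bases before to 50 after the start, read 5′ to 3′ on the strand of the gene. Capitals mark matches on either strand to GAGGAA (the core bound by PU.1, a transcription factor of myeloid cells), GCGTG (the core of the xenobiotic response element bound by AHR, the receptor the study is about), TTCNNNGAA (the STAT motif), GGGCGG (the GC box) and TATAAA (the TATA box).
Adgre4, chr17:55749734-55750033, plus strand: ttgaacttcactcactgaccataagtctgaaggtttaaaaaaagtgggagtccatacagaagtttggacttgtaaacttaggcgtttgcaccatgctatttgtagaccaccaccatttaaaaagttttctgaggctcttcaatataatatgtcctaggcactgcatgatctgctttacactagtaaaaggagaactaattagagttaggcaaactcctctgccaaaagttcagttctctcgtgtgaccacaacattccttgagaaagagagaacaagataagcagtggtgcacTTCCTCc
Adgrg3, chr8:95017442-95017741, plus strand: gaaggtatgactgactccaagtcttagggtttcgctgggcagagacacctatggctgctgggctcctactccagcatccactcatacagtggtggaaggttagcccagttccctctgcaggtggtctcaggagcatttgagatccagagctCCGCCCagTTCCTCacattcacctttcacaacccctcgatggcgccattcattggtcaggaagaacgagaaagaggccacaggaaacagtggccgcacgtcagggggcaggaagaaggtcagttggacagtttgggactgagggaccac
Cd55, chr1:130462695-130462994, minus strand: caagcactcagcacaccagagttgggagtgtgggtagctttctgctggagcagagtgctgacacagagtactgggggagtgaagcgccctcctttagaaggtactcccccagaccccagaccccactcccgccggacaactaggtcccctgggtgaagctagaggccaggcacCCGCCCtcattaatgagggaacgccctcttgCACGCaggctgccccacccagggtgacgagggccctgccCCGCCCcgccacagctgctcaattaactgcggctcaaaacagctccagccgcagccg
Adgre4 and Adgrg3 each held 1 GAGGAA match, which 28.3% of all 32851 promoter windows held. Cd55 held 1 GCGTG match, found in 32.4% of all windows, and 2 GGGCGG matches, found in 35.7%. Adgrg3 held 1 GGGCGG match as well. TTCNNNGAA, which 8.30% of all windows held, and TATAAA, held by 13.6%, were in none of the 3. The window of Adgre4 had 40.3% G and C, below the median of 52.7% over all windows, and those of Adgrg3 and Cd55 had 55.7% and 63.3%. Adgrg1 has 2 windows, of which 1 held 2 GCGTG matches and the other none of the 5 motifs. A match describes the letters of a window and is not a measured binding site.

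Levels of different genes were compared as RPKM, which divides the same scaled counts by the gene length in the table. In the controls Adgre1 stood at 110.7 ± 0.366 RPKM (SD, n = 2), Adgre5 at 2.68 ± 0.0962 RPKM and Adgre4 at 1.02 ± 0.00529 RPKM. Cd55 followed at 0.415 ± 0.0339 RPKM. Adgrg1 and Adgrg3, at 0.0175 ± 0.0248 and 0.00917 ± 0.0130 RPKM, could not be ranked against each other. The macrophage marker was thus far above the other 5 genes.

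In the tumor libraries Adgre1 was at 134.7 ± 0.256 RPKM (SD, n = 2) and Adgre5 at 124.6 ± 0.230 RPKM. Adgre4 was at 19.2 ± 0.819 RPKM and Cd55 at 7.21 ± 0.210 RPKM. Adgrg3 and Adgrg1, at 2.76 ± 0.0277 and 0.249 ± 0.126 RPKM, came last, now in that order. All neighbours in this order differed by more than their SDs, which do not cover errors in the gene length used. By CPM Adgre5, at 468, stood above Adgre1, at 436. The bases that Adgre5 shares with Ddx39 were not corrected for, here or in the ratios and shares of Adgre5 below. The order of the first 4 genes was as in the controls, but the distances were not. Among the 14256 genes tested, ranked by RPKM, Adgre5 stood at 8288 in the controls and at 366 in the tumor libraries. Adgre1 stood at 429 and then 333, and Adgre4 at 10394 and then 2564.

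Within a library the scaling cancels, so a ratio of RPKM does not depend on it. Adgre5 over Adgre1 was 0.0235 and 0.0249 in the controls, against 0.928 and 0.923 with a tumor. Adgre4 over Adgre1 was 0.00922 and 0.00919 against 0.147 and 0.138. Adgre5 over its ligand gene Cd55 was 5.94 and 7.02 against 17.0 and 17.6. In each of these ratios both tumor libraries lay above both controls, that of Adgre5 over its ligand gene included.

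The 5 receptors summed to 114.6 and 114.3 RPKM in the controls and to 282 and 281 RPKM in the tumor libraries. Adgre1 made up 96.8% and 96.7% of that sum in the controls and 47.7% and 48.0% in the tumor libraries. The share of Adgre5 was 2.28% and 2.40% and then 44.3% and 44.3%. Adgre4 held 0.892% and 0.888% and then 7.02% and 6.63%. Adgrg3 and Adgrg1 stayed below 1% each in every library. A list of 24 other adhesion GPCR genes summed to between 17.6 and 17.9 RPKM in the controls and between 17.8 and 18.2 RPKM in the tumor libraries, under TMM scaling, a sum that overlapped between the groups.

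**Figure D2:**
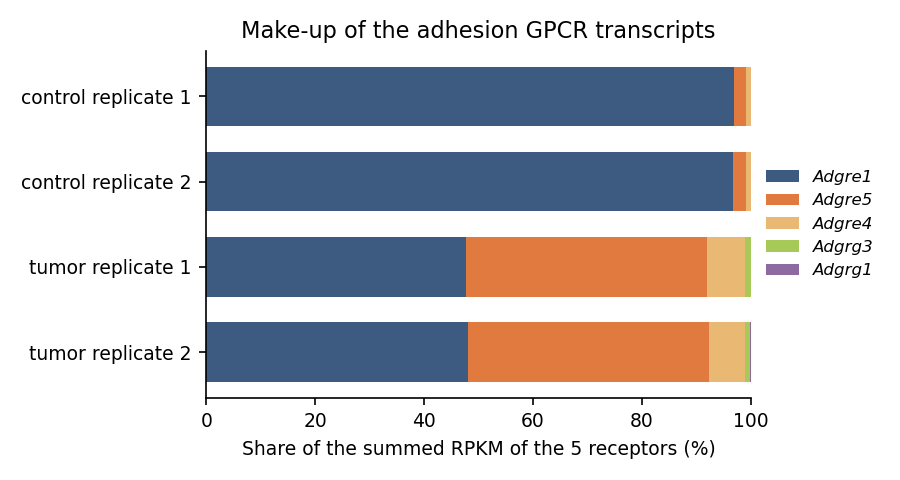
Share of the summed RPKM of the 5 receptors (percent) held by each, 1 bar per library. Adgre1 fills 96.7% or more of the control bars, and Adgre1 and Adgre5 hold 47.7% to 48.0% and 44.3% of the tumor bars.

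Of these 24 other adhesion GPCR genes, 13 could be tested and 8 were called (61.5%, beside 53.8% of all genes tested), 6 as higher and 2 as lower, which became 11 higher and 0 lower when AM identity genes set the scale. Their median log2 difference was 0.90, with genes that were at the floor in the controls entered at their count ratio or bound, beside 0.02 over all genes tested. Adgrg6, the receptor GPR126 known from Schwann cell myelination, had 4 and 9 counts in the controls and 236 and 246 in the tumor libraries. Its log2 difference of 5.09 ± 0.272 was close in size to that of Adgre5 (edgeR quasi-likelihood test, Benjamini-Hochberg adjusted p = 2.14e-15). Adgrb1, the receptor BAI1 that binds phosphatidylserine on dying cells, had no count in the controls, while the tumor libraries held 53 and 48, at least 12.9-fold higher. Adgrl4, an endothelial receptor, had 3 and 1 against 33 and 49 counts, a ratio of 19.2 with a counting interval from 7.20 to 72.0.

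The atypical cadherin genes Celsr3 and Celsr1, which act in planar cell polarity, were higher by 2.04 ± 0.136 and 2.31 ± 0.494 on the log2 scale. Adgrl1, a latrophilin gene, was higher by 1.98 ± 0.451, from 10 and 5 counts to 27 and 37. It is also the nearest gene after Adgre5 with at least 10 counts in every library of a group, 158778 bases on. The other latrophilin genes are named here after their values were seen. Adgrl2, the most abundant of the 24 at 13.9 ± 0.0269 RPKM in the controls, went to 10.8 ± 0.0663 RPKM, with a log2 difference of -0.36 ± 0.0350 that became 0.22 when AM identity genes set the scale. For Adgrl3 it was -0.64 ± 0.0923, and -0.06 under that scale. In the order of the family by RPKM, Adgre5 thus passed from place 3 to 2 and Adgre4 from 5 to 3, while Adgrl2 passed from 2 to 4 of these 29 receptor genes. Adgra2, Adgra3, Celsr2, Adgrf3 and Adgrf5 were tested and not called.

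**Figure D3:**
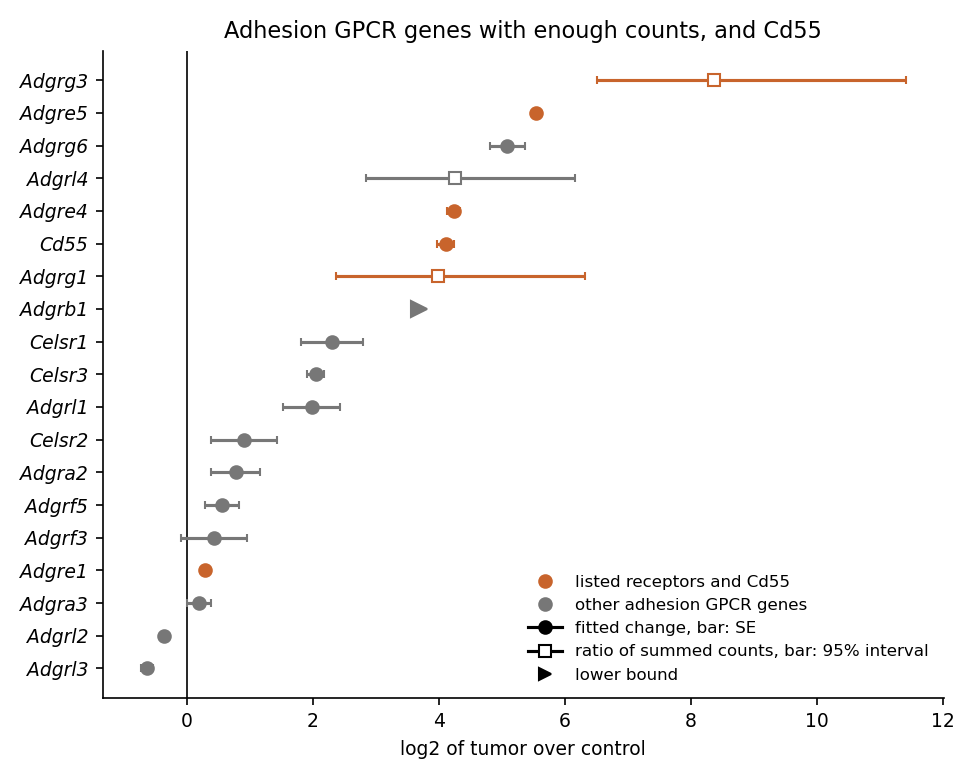
Log2 difference, tumor over control, of the 6 genes and the other adhesion GPCR genes tested, with bars for the SE (for genes at the floor in the controls, the count ratio with its 95% counting interval, or the lower bound). Adgre1, at 0.28, is the member nearest to 0, and Adgrl2 and Adgrl3, at -0.36 and -0.64, lie below it.

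The extracellular partners of these receptors were taken as a list of 13 genes, of which 11 were tested and 9 called (81.8%, beside 53.8% of all genes tested), 5 as higher and 4 as lower (10 and 1 with AM identity genes setting the scale), with a median log2 difference of 0.14 beside 0.02 over all genes tested. Thy1, Col3a1, Prtn3 and Cd177 passed the filter through their tumor counts. With at least 10 counts in every library they were left out, and of 7 tested 1 was called higher and 4 lower. Thy1, a lipid-anchored protein of T cells and other cells that CD97 also binds, went from 18 and 7 counts to 71 and 51, a log2 difference of 2.20 ± 0.363 (edgeR quasi-likelihood test, Benjamini-Hochberg adjusted p = 8.83e-06). The integrin subunits bound by CD97 did not move together. Itga5, the alpha chain of the fibronectin receptor, stood at 484 ± 9.44 CPM (SD, n = 2) in controls and 122.9 ± 2.16 CPM in tumor libraries, and its log2 level fell by 1.98 ± 0.0314. Its partner Itgb1 had a log2 difference of 0.00 ± 0.0249 and Itgav one of 0.14 ± 0.0793, neither past the test, although both were called higher, at 0.58 and 0.72, with AM identity genes setting the scale. Itgb3, the beta chain of the vitronectin receptor that is also the integrin of platelets, rose from 0.695 to 59.5 CPM on average, a log2 difference of 6.41 ± 0.151.

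Prtn3 and Cd177, which encode the neutrophil serine protease 3 and its surface carrier, are linked to ADGRG3 and are themselves neutrophil genes. Prtn3 had 1 and 0 counts in the controls and 672 and 750 in the tumor libraries, a ratio of 1329 with a counting interval from 238.1 to 52510. Cd177 went from 7 and 6 to 1219 and 1488 counts, by 7.58 ± 0.157 on the log2 scale. Col3a1, a collagen that ADGRG1 binds, rose from 7 and 8 to 28 and 33 counts, by 1.91 ± 0.450. Cd9 and Cd81, tetraspanins that pair with ADGRG1, and Tgm2, a transglutaminase that it binds, were named after their values were seen. Their log2 differences of -0.35 ± 0.0180, -0.25 ± 0.0486 and -0.31 ± 0.0223 turned to 0.23, 0.33 and 0.28 when AM identity genes set the scale.

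Adhesion GPCRs signal mostly through the G12 and G13 proteins, and also through Gi, Gs and Gq. Of 18 genes listed for this coupling, 17 were tested and 13 called (76.5%, beside 53.8% of all genes tested), 6 as higher and 7 as lower, which became 12 higher and 0 lower with AM identity genes setting the scale. The median log2 difference was -0.03, beside 0.02 over all genes tested. Arhgef1, an exchange factor gene of leukocytes, rose from 297.1 to 490.0 CPM on average, a log2 difference of 0.72 ± 0.0272 (edgeR quasi-likelihood test, Benjamini-Hochberg adjusted p = 6.98e-19). Arrb1, a beta-arrestin gene, rose by 0.84 ± 0.0640, and Gnao1, a Gi-class alpha subunit, by 2.61 ± 0.535 from 4 counts in each control library. Gna13, the exchange factor gene Arhgef12 and the kinase gene Rock2 had log2 differences of -0.64 ± 0.0252, -0.58 ± 0.0517 and -0.56 ± 0.0350. With AM identity genes setting the scale these were -0.06, 0.00 and 0.02, and none of them passed the test. Gnaq, Gnas, Rock1 and Arhgef11, named after their values were seen, were the other genes called lower, at -0.54, -0.36, -0.52 and -0.14, and stood at 0.04, 0.22, 0.06 and 0.45 under that scale, where Gnas and Arhgef11 were called higher and Gnaq and Rock1 were not called. Arhgef11 also lost its call with total counts, in DESeq2's Wald test, without control replicate 2 and without tumor replicate 1, with adjusted p from 0.0774 to 0.213. Gna11, a Gq-class alpha subunit called higher at 0.35 and also named after its values were seen, lost its call with no filter on low counts, in DESeq2's Wald test, and without control replicate 1, control replicate 2 or tumor replicate 2, with adjusted p from 0.0657 to 0.171. Gna15 and Gnai2, named after their values were seen, were the remaining genes called higher, at 0.38 and 0.11. Gna12, Gnai3, Arrb2 and Rhoa were not called under TMM scaling, and were called higher with AM identity genes setting the scale.

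Cd55 belongs to the proteins that hold complement in check on the cell surface and in plasma. Of the 9 other complement regulators listed, 4 were tested and 4 were called, all of them as higher, beside 53.8% of all genes tested called and 29.0% called higher. Their median log2 difference was 2.36, beside 0.02 over all genes tested. C4bp and Serping1 were below 10 counts in both controls and entered the test only through their tumor counts. A call as higher was thus largely fixed for them by the choice of genes to test. Nothing is therefore read from the share called or the median against all genes. Where each library had to reach 10 counts, neither was tested, and Cr1l and Cd46 were both called higher. Cr1l, the Crry regulator that guards mouse cells as CD55 does, was abundant in both groups, at 87.6 ± 0.358 and 95.3 ± 1.03 CPM (SD, n = 2). Its log2 difference was 0.12 ± 0.0466 (edgeR quasi-likelihood test, Benjamini-Hochberg adjusted p = 0.0283). Cd46, a cofactor for complement cleavage, rose by 1.28 ± 0.356 on the log2 scale from 24 and 11 counts. Serping1, the C1 inhibitor, went from 6 and 2 to 83 and 58 counts. C4bp, the binding protein of C4b, had no count in the controls and 36 and 47 counts with a tumor, at least 10.9-fold higher. It is the nearest gene after Cd55 with at least 10 counts in every library of a group, 172028 bases on. Cr1l lost its call without control replicate 1, control replicate 2 or tumor replicate 1, with no filter on low counts and in DESeq2's Wald test, with adjusted p from 0.105 to 0.194. Cd46 lost its call without control replicate 2 and without tumor replicate 2, with edgeR adjusted p = 0.074 and 0.0688.

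The marker lists of other cell types differed in direction. All 6 eosinophil markers, among them Epx and Prg2, were called higher, with Prg3 at 0 in both controls. All 11 neutrophil markers were called higher, with Elane at 0 in both controls, where the list's sum came mostly from Csf3r and Mmp8. All 6 basophil and mast cell markers were higher, from between 0.267 and 0.633 CPM in sum to between 55.0 and 62.9 CPM, with Mcpt8, Ms4a2 and Fcer1a at 0 in the controls. The 8 genes of monocytes and interstitial macrophages went the other way in sum, from between 1146 and 1152 CPM to between 925 and 953 CPM, but the sum was higher by 0.29 on the log2 scale with AM identity genes setting it. Cd14 alone made up 1110 CPM of that sum in the controls and 903 CPM in the tumor libraries, on average. In this list 5 genes were called lower and 2 higher. The lower ones were Cd14, C1qa, C1qb, C1qc and Cx3cr1, the last from 3.22 to 0.980 CPM on average. The higher ones were the monocyte genes Ccr2, from 5.86 to 14.8 CPM on average, and Ly6c2, from 0.275 to 1.45 CPM. Ly6c2 had only 2 and 7 counts in the controls and 14 and 41 in the tumor libraries. With AM identity genes setting the scale 4 genes were higher and 3 lower.

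The markers of natural killer (NK) cells, on which ADGRG1 is known, summed to between 1.60 and 1.90 CPM in the controls and between 9.57 and 9.98 CPM in the tumor libraries, with 4 of 4 tested genes called higher. The T cell list had 3 of 5 tested genes higher and summed to 3.89 to 4.49 and then 13.3 to 14.5 CPM. The B cell list had 4 of 5 called, all higher, and went from 6.61 to 6.90 up to 12.7 to 13.6 CPM. Of the 6 dendritic cell genes 3 were higher and 1 lower, with sums of 11.7 to 11.8 and 35.8 to 37.3 CPM. The endothelial list, at 114.6 to 117.2 and 104.6 to 105.1 CPM, had 2 higher and 1 lower, and 5 higher and 0 lower with AM identity genes setting the scale. Under TMM scaling the lower sum came from Vwf, from 110.9 to 81.7 CPM on average, while Pecam1 rose from 2.13 to 18.8 CPM. The 6 hepatocyte genes, all called higher, summed to between 0.107 and 0.253 CPM in the controls, where Alb, Ahsg, Ttr and Fgb were at 0. In the tumor libraries they summed to between 604.8 and 607.3 CPM. Whether the CD45+ gate of the imaging was used for these libraries is not stated. The part of the listed cell types in the values of the 6 genes was not tested.

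**Figure D4:**
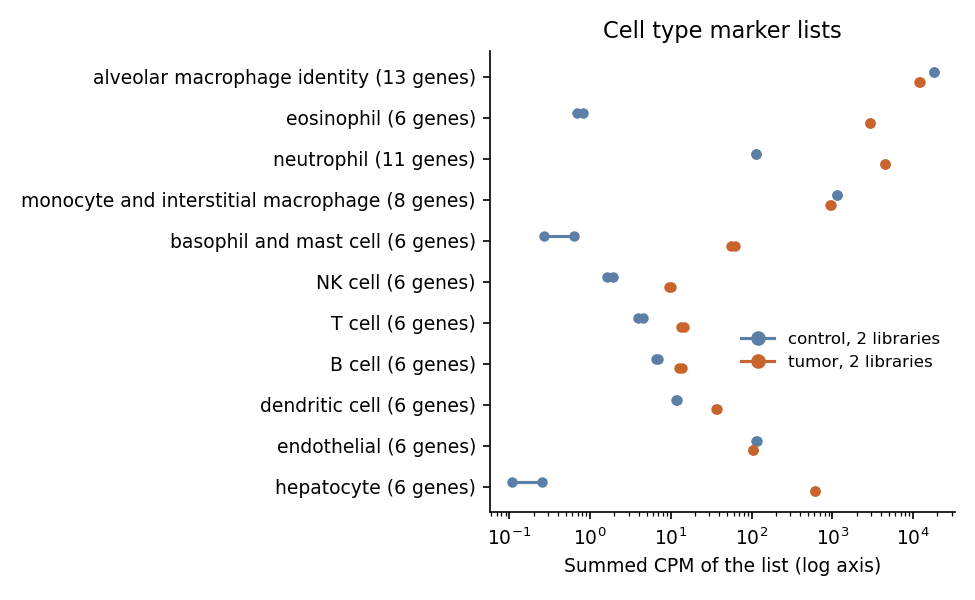
Summed CPM (log axis) of each cell type marker list in the 2 control and 2 tumor libraries. The eosinophil list lies at 0.823 CPM or less in controls and at 2917 CPM or more in tumor libraries, while the AM identity list drops from about 17900 to at most 12050 CPM.

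The genes whose pattern over the 4 libraries was most like that of Adgre5 were Slfn1, Ripor2 and Ankrd33b. Likeness was measured as the root mean square difference of centred log2 CPM among the 9559 genes whose counts averaged 100 or more, and was 0.0413, 0.0717 and 0.0799 for these genes. Slfn1, a Schlafen gene of lymphoid and myeloid cells, went from 0.578 to 31.2 CPM on average, and Ripor2 from 2.96 to 128.5 CPM. For Adgre1 the nearest genes were Ppcdc, mt-Co1 and Ggct, with differences of 0.00411, 0.00624 and 0.00656. With 2 groups of 2 libraries, this measure rests mainly on the size of the difference between the groups.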

How the data were processed

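Bulk RNA-seq counts of AMs were analysed for 2 control and 2 tumor libraries. Per the labels and the study's methods, the authors made libraries with a NEBNext Ultra kit, aligned paired reads with HISAT2 2.0.5 and counted reads per gene with featureCounts. The deposited table holds these raw counts with gene lengths and positions. DESeq2 is named in the submitters' processing notes. The genome build, the annotation and the use of strand in counting are not given in the sources used here. The positions of 98.3% of genes, all 6 members included, are identical to those of GENCODE for GRCm38. No batch or sequencing date is given.

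Genes were filtered with filterByExpr (minimum count 10) and tested with edgeR 4.0.16 (R 4.3.3; TMM, quasi-likelihood, Benjamini-Hochberg, threshold 0.05) without covariates, over 14256 genes and 2 residual degrees of freedom. CPM and RPKM use the TMM-scaled totals. The SE is the log2 difference divided by the square root of F. A gene at or below 3 counts in each control library is given by its count ratio or, at 0, by a lower bound against 3 counts per library. The procedure was tested on simulated data. Each library counted as 1 replicate. Replicates of a group varied more than sampling noise (chi-square per gene 1.81 for controls, 2.30 for tumor), which does not show that they came from separate mice. The common dispersion fitted by edgeR was 0.000916. Same-numbered libraries share only a number.

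1 listed member and some other genes are not reported here and enter no sum, share, order or list. The members and all lists were chosen with earlier results of these data known. The text names the 6 members described, the 6 or fewer called genes of each list with the largest differences (20 or more counts on average where higher), genes named for their role, the nearest genes beside the members, and the 3 genes most like Adgre5 and Adgre1. Other genes are marked as named after their values were seen. Alternatives were DESeq2 1.42.0 size factors and Wald test, limma 3.58.1 voom, total counts, AM identity scaling, other filters, a log2 minimum of 1, a replicate block and leaving out each library.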

Additional observations from a re-analysis of the deposited data

How the results depend on the processing

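As a description, since the family was selected on this comparison, the members' values are given without a test. Their log2 differences ranged from 0.26 to 0.86 (Adgre1), 4.18 to 4.81 (Adgre4), 5.49 to 6.12 (Adgre5) and 4.01 to 4.69 (Cd55). The log2 count ratio of Adgrg1, 3.99, ranged from 2.85 without control replicate 1 to 4.57, and that of Adgrg3, 8.36, from 7.22 without that library to 8.94. Without control replicate 2 both have no control count and no value. With at least 10 counts in every library, Adgrg1 and Adgrg3 were left out. That filter left calls for 3 other adhesion GPCR genes (1 higher and 2 lower, beside 6 and 2), 5 partners (1 higher and 4 lower, beside 5 and 4) and 2 complement regulators, because genes with few control counts were no longer tested. With a log2 difference of at least 1 required, calls were 2268 genes (81.1% higher) and 1 coupling gene. With AM identity scaling 11211 genes were called, 95.1% as higher beside 53.9%. By total counts 62.7% of calls were higher, and DESeq2's Wald test called 5858 genes. Ordered by CPM in place of RPKM, 2 members kept their place between the groups, beside 4. Leaving out 1 library, which assumes that the lone library varies like the other group, gave 6515 to 7470 genes, 8 to 10 other adhesion GPCR genes, 9 partners, 11 to 13 coupling genes and 2 to 3 complement regulators. With the replicate number as a block 7446 genes were called, beside 7671; same-numbered libraries did not deviate together (correlation -0.00278). With 2 libraries per group, no group could be examined for a library that stands apart.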
